A study of Homo sapiens with 12 samples.

Results

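T47D cells given 100 pM of a progestin for 18 h were compared with T47D cells given vehicle for 18 h. The comparison held 4 of the study's 12 RNA-seq libraries, 2 from each group, numbered replicate 1 and replicate 3 in the labels. T47D is an established line from a human breast carcinoma and has receptors for progesterone and estrogen. In all groups, the controls included, the cells had been serum-starved in low charcoal-stripped serum, which is depleted of steroid hormones, before treatment. The labels do not name the progestin, and the groups stand for 1 cell line. Alongside stood 2 libraries given 10 nM of the progestin for 18 h and, at 6 h, 2 libraries each given 100 pM, 10 nM or vehicle. The series title asks whether the output of the cells depends on the progestin level, and this comparison gives the lower dose at the later time.

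The progesterone receptor is a transcription factor that a progestin switches on. It binds hormone response elements in DNA, and it shares this element with the glucocorticoid receptor. In the breast, progesterone acts in the luminal and alveolar epithelium, where it drives proliferation and secretory differentiation. Before cells enter S phase, cyclin D with its kinases releases E2F factors from the retinoblastoma family, so that genes of DNA replication are transcribed.

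Total counts were 34204970 to 38510905 per library in the 4 libraries, and 13872 of 20114 genes passed the filter on low counts. Levels are CPM, counts scaled to a common library size with TMM factors, given as replicate 1 and then replicate 3, and 100 pM 1 stands for replicate 1 of the 100 pM group. Calls come from a fit to all 12 libraries without the replicate number, unless a block on that number is named. Differences are log2 fold changes ± SE over vehicle (n = 2 libraries each). A call is an edgeR adjusted p under 0.05, and rose and fell are used of called genes. The labels do not give separate cultures for replicates, so p-values reflect the spread of these samples alone, which may be technical. Mitochondrially encoded genes took 6.69% and 8.59% of counts at 100 pM, against 7.84% and 10.7% in vehicle, and their part in the results was not tested. Summed levels of 9 luminal epithelial markers were 11203 and 10131 CPM at 100 pM, against 11803 and 11141 CPM in vehicle. The 6 basal, 6 immune, 4 endothelial and 4 adipocyte markers summed to at most 7.58, 5.56, 0.141 and 1.52 CPM at 100 pM, against at most 9.87, 5.23, 0.364 and 3.28 CPM in vehicle. The 6 fibroblast markers summed to 82.2 and 82.7 CPM at 100 pM, against 116 and 119.9 CPM in vehicle. Most of that was COL1A1, with 81.3 and 75.9 CPM at 100 pM, against 113.9 and 111 CPM in vehicle, and COL1A2 was at 0 in 3 of the 4 libraries.

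Of the 13872 genes tested, 911 rose (6.57%) and 539 fell (3.89%) at 100 pM for 18 h. Of these, 448 rose and 136 fell by more than 2-fold, and 191 rose and 32 fell by more than 4-fold. The median called rise was 0.98 and the median called fall -0.62 on the log2 scale, while the median over all tested genes was -0.035. In bulk RNA, a lower level from fewer cells of a kind and one from less RNA per cell cannot be told apart. Each of the 1450 called genes had 100 pM and vehicle libraries that did not overlap, which also held for 7225 (52.1%) of all tested genes. Libraries with the same replicate number varied together. A fit with the replicate number as a block called 2365 genes up (17.0%) and 2363 down (17.0%). Rises made up 50.02% of calls there and 62.8% without the block. Counts with the block in the lists below are read against these 17.0% shares. Called genes numbered 845 without 100 pM 1, 713 without 100 pM 3, 512 without vehicle 1 and 630 without vehicle 3. In a fit to the 18 h libraries alone 477 rose and 178 fell (72.8% of calls up), and in a fit to the 4 libraries alone 334 rose and 104 fell (76.3%).

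Genes of DNA replication had the highest share of rises among the 33 gene lists examined. Of 65 tested, 30 rose, 0 fell and 35 were not called, all 65 had a positive fold change, and the median was 1.33 on the log2 scale, against -0.035 over all genes tested. The called share was 46.2%, against 6.57% of all genes, and with the block 60 were called up. The summed level of the 65 genes was 3899.8 and 5781 CPM at 100 pM, against 1884 and 2368 CPM in vehicle. In each group replicate 3 stood above replicate 1: 64 of the 65 genes were higher in replicate 3 at 100 pM (median log2 0.57) and 62 in vehicle (median log2 0.37). The count of rises was 26 without 100 pM 1, 1 without 100 pM 3, 1 without vehicle 1 and 4 without vehicle 3. It was 4 in the 18 h libraries alone, 9 in the 4 libraries alone and 47 with DESeq2.

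Promoter sequences of members of this group are shown because they hold the element through which E2F factors are known to bind. From RefSeq (GRCh38.p14), 55 of the 65 replication genes had a promoter, taken as 250 bases before to 50 bases after the start. The letters searched, on both strands, were TTTCCCGC, TTTGGCGC, TTTCGCGC and TTTGCCGC, and overlapping matches were counted separately. A match lay in 22 of the 55 promoters (40.0%) and in 5.20% of the 11120 promoters of tested genes. GINS2 (chr16:85688905-85689204, minus strand) had the smallest adjusted p of the group, MCM6 (chr2:135876394-135876693, minus strand) held 4 matches, and PCNA (chr20:5126573-5126872, minus strand) encodes the sliding clamp. Each is written on the strand of its gene with the matches in capitals, and a match is a description of the letters, not of binding.
GINS2: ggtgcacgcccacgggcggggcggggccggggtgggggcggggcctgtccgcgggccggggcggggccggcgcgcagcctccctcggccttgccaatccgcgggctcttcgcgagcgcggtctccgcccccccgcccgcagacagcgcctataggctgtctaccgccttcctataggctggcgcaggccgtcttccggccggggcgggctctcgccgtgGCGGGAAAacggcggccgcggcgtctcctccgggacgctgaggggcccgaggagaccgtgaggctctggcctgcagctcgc
MCM6: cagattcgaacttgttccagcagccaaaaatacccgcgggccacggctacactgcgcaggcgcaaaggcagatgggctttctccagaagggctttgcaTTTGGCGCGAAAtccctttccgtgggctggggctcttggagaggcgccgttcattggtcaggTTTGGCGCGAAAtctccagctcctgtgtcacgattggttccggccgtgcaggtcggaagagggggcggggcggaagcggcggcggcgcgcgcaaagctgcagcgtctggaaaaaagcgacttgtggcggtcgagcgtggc
PCNA: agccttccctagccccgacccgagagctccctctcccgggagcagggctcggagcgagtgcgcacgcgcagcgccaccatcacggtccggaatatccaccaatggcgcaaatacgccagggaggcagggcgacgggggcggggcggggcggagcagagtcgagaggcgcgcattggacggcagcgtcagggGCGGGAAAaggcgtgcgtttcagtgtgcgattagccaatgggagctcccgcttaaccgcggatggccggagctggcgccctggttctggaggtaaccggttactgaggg
In MCM6 the 4 matches form a pair of identical stretches, TTTGGCGCGAAA, in which 2 overlapping matches lie on opposite strands. They start 152 and 90 bases before the gene.

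Licensing, in which the MCM2-7 helicase is loaded at origins, had the most called genes and was also the step with the most genes listed. Of 14 origin recognition and licensing genes, 8 rose (57.1%), with a median of 1.46. The share was close to that of polymerase and primase genes (55.6%) and of helicase activation genes (50%). With the block 12 of the 14 licensing genes and 12 of 12 activation genes were up. MCM6, a subunit of the helicase ring, stood at 93.9 and 133 CPM at 100 pM, against 28.4 and 36.5 CPM in vehicle, a log2 fold change of 1.81 ± 0.32 (edgeR adjusted p = 0.00938). MCM5, another subunit of the ring, rose, with 71.3 and 92.9 CPM at 100 pM, against 17.98 and 21.3 CPM in vehicle (2.06 ± 0.37 on the log2 scale, edgeR adjusted p = 0.00938). In MCM7 the level was 149.9 and 199.9 CPM at 100 pM, against 59.5 and 72.98 CPM in vehicle (log2 fold change 1.40 ± 0.28, edgeR adjusted p = 0.0165). In each of the 3 genes both 100 pM libraries lay above both vehicle libraries by more than the gap between replicates. MCM2 (1.75 ± 0.36) and MCM3 (1.51 ± 0.35) rose as well, as did CDC6 (2.52 ± 0.61), the loading ATPase, and ORC6 (1.72 ± 0.40). The helicase is then activated by CDC45 and the GINS complex, and 6 of 12 activation genes rose. GINS2, a GINS subunit, measured 129 and 181 CPM at 100 pM, against 15.7 and 23.7 CPM in vehicle (log2 fold change 2.97 ± 0.36, edgeR adjusted p = 0.00174). It had the smallest edgeR adjusted p among the replication genes. GINS3, another GINS subunit, stood at 7.09 and 9.54 CPM at 100 pM, against 2.94 and 3.38 CPM in vehicle, a log2 fold change of 1.39 ± 0.28 (edgeR adjusted p = 0.0151). Leaving out 1 library ended the calls of MCM5, MCM7, GINS3, MCM2, MCM3 and ORC6 without 100 pM 3, vehicle 1 or vehicle 3, of MCM6 without 100 pM 3 or vehicle 1, of CDC6 without any 1 of the 4 libraries (edgeR adjusted p 0.0510 to 0.199).

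Polymerase genes had a smaller median than licensing genes. Of 9 polymerase and primase genes 5 rose, with a median of 0.90. POLD1, the catalytic subunit of polymerase delta, rose, with 38.2 and 46.4 CPM at 100 pM, against 22.3 and 22.99 CPM in vehicle (0.90 ± 0.16 on the log2 scale, edgeR adjusted p = 0.0106). In POLA1, the catalytic subunit of the primase-linked polymerase alpha, the level was 45.3 and 65.4 CPM at 100 pM, against 24.6 and 30.9 CPM in vehicle (log2 fold change 0.997 ± 0.20, edgeR adjusted p = 0.0172). The clamp and ligation group had 4 of 12 genes called, among them PCNA (2.001 ± 0.42), with 124 and 214 CPM at 100 pM, against 34.4 and 49.8 CPM in vehicle. FEN1 (1.51 ± 0.33), which trims Okazaki fragments, rose too, whereas RFC1, the large subunit of the clamp loader, was not called (0.18 ± 0.12). Among 8 genes of nucleotide supply 4 rose. TK1, the thymidine kinase of S phase cells, measured 114 and 177 CPM at 100 pM, against 19.8 and 34.7 CPM in vehicle (log2 fold change 2.42 ± 0.49, edgeR adjusted p = 0.0173). TYMS (2.08 ± 0.51), thymidylate synthase, and RRM1 (1.04 ± 0.28), the large subunit of ribonucleotide reductase, rose as well. RRM2, the small subunit, had 119 and 249.2 CPM at 100 pM, against 18.1 and 45.9 CPM in vehicle, and was called with the block and not without it (log2 2.52 ± 0.73, edgeR adjusted p = 0.0635 without and 0.000505 with the block). Of the fork and checkpoint genes, CHEK1 (1.52 ± 0.33), a kinase of the replication checkpoint, and DTL (2.73 ± 0.66), a ubiquitin ligase adaptor that clears licensing factors, rose. PCNA, FEN1, TYMS, RRM1, CHEK1, DTL, RFC1 and RRM2, like MCM2, MCM3, CDC6 and ORC6 above, were picked after their values were seen, to fill each step. With 1 library fewer, calls were not kept by POLD1, PCNA, FEN1, TYMS, RRM1 and CHEK1 without 100 pM 3, vehicle 1 or vehicle 3, by POLA1 and TK1 without 100 pM 3 or vehicle 1, by DTL without any 1 of the 4 libraries (edgeR adjusted p 0.0554 to 0.249). Without 100 pM 3 the log2 fold change of RRM1 was 0.67.

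**Figure D1:**
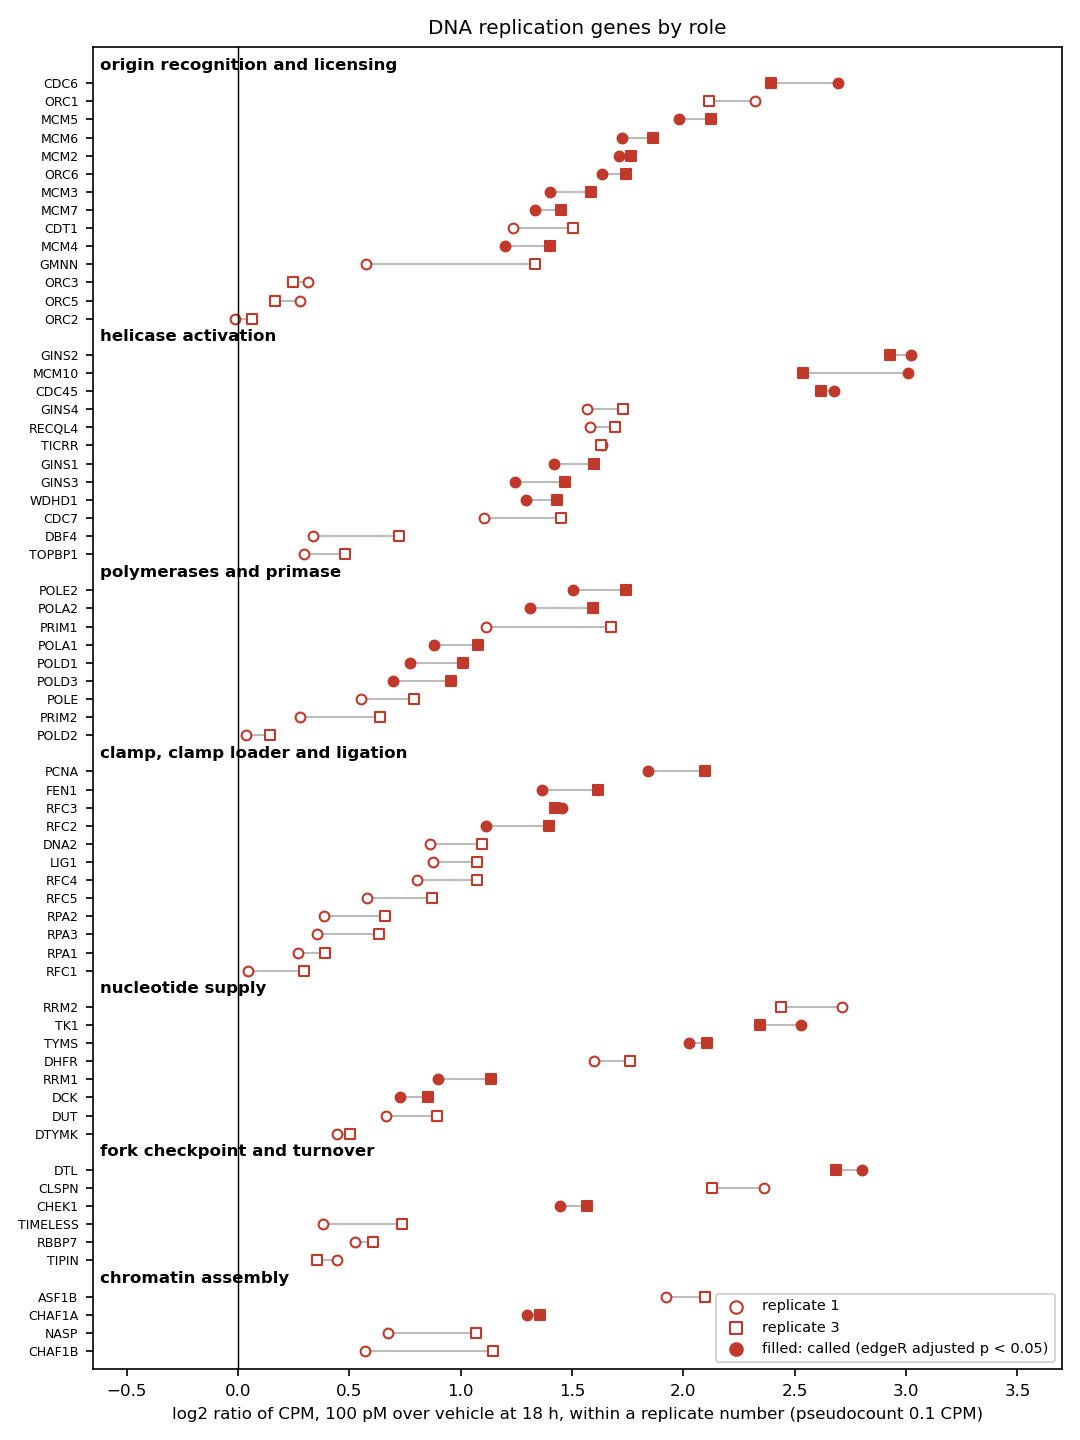
Log2 ratio of CPM at 100 pM over vehicle at 18 h for the 65 tested DNA replication genes, grouped by role, with 1 point for each replicate number (circle 1, square 3) and filled points for the 30 called genes. Both points lie to the right of 0 for 64 of the 65 genes, and the 2 points of a gene mostly lie close together.

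Replication-dependent histone genes, whose transcripts normally build up in S phase, did not follow the replication genes. Of 55 listed only 26 had enough counts to test, and 0 rose and 0 fell by edgeR (0 up and 1 down at an unadjusted p under 0.05, 0 up and 0 down by DESeq2, 0 up and 2 down with the block). Their summed level was 193 and 221 CPM at 100 pM, against 214 and 259 CPM in vehicle, with a median log2 of -0.17. Near-identical histone genes share reads, and most of these transcripts carry no poly(A) tail. The labels give the starting material as total RNA.

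Control of the step from G1 to S changed at several points. In the list of 41, 13 rose, 3 fell and 25 were not called, or 31.7% with a rise and 7.32% with a fall (against 6.57% and 3.89% of all genes), and with the block 22 were up and 7 down. CCND1, which encodes cyclin D1, stood at 369 and 261 CPM at 100 pM, against 103 and 92.96 CPM in vehicle, a log2 fold change of 1.68 ± 0.17 (edgeR adjusted p = 0.000633). CDK2, the kinase partner of cyclins E and A, rose, with 104 and 143 CPM at 100 pM, against 51.6 and 54.2 CPM in vehicle (1.22 ± 0.23 on the log2 scale, edgeR adjusted p = 0.0118). CCNE2 (2.62 ± 0.61), a cyclin E, and E2F1 (2.51 ± 0.56), an E2F factor, had the largest called rises of the list, both chosen after their values were seen. In RBL1, the retinoblastoma relative p107, the level was 31.2 and 43.3 CPM at 100 pM, against 17.7 and 18.8 CPM in vehicle (log2 fold change 1.03 ± 0.21, edgeR adjusted p = 0.0173). Its relative RBL2 (-0.53 ± 0.13), or p130, which dominates in resting cells, fell, as did CDK6 (-1.57 ± 0.37), a partner of cyclin D, and these 2 were likewise chosen after their values were seen. MXD4, a transcriptional repressor of the MAX network, measured 74.2 and 68.1 CPM at 100 pM, against 111 and 118 CPM in vehicle (log2 fold change -0.68 ± 0.088, edgeR adjusted p = 0.00214). Of 7 inhibitors of the cyclin-dependent kinases 2 rose. CDKN1A, which encodes p21, stood at 46.1 and 45.2 CPM at 100 pM, against 25.9 and 22.2 CPM in vehicle, a log2 fold change of 0.92 ± 0.15 (edgeR adjusted p = 0.00587). CDKN1B, which encodes p27, rose, with 77.8 and 66.8 CPM at 100 pM, against 45.3 and 47.8 CPM in vehicle (0.64 ± 0.10 on the log2 scale, edgeR adjusted p = 0.00558). In CCNG2, an atypical cyclin linked to arrest, the level was 411 and 312 CPM at 100 pM, against 237 and 229 CPM in vehicle (log2 fold change 0.64 ± 0.13, edgeR adjusted p = 0.0196). LIN54, a DNA-binding part of the complex that represses or activates cell cycle promoters, measured 36.5 and 42.1 CPM at 100 pM, against 26.5 and 27.4 CPM in vehicle (log2 fold change 0.54 ± 0.11, edgeR adjusted p = 0.0161). Rises in the list numbered 9 without 100 pM 1, 4 without 100 pM 3, 2 without vehicle 1 and 2 without vehicle 3, and 3 in the 18 h libraries alone. Calls were lost by CCNE2, CDK2, RBL1 and LIN54 without 100 pM 3, vehicle 1 or vehicle 3, by E2F1 and CDK6 without any 1 of the 4 libraries, by RBL2 and CCNG2 without 100 pM 1, vehicle 1 or vehicle 3, by CDKN1A without vehicle 3, by CDKN1B without vehicle 1 (edgeR adjusted p 0.0520 to 0.181). Without 100 pM 1 the log2 fold change of CCNG2 was 0.42.

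DNA repair genes, many of them active in S phase, rose more often than all genes tested. Of 36 tested, 11 rose, 0 fell and 25 were not called, or 30.6% with a rise, against 6.57% of all genes. The median was 0.96. With the block 28 were up and 2 down, against 17.0% of all genes in each direction. Of 15 genes of homologous recombination 7 rose, of 10 Fanconi genes 2 and of 11 mismatch and excision repair genes 2. EXO1, an exonuclease that resects DNA ends, stood at 30.4 and 53.8 CPM at 100 pM, against 4.64 and 9.07 CPM in vehicle, a log2 fold change of 2.62 ± 0.59 (edgeR adjusted p = 0.0250). XRCC3, a protein of homologous recombination, rose, with 26.7 and 36.1 CPM at 100 pM, against 12.1 and 16.1 CPM in vehicle (1.15 ± 0.27 on the log2 scale, edgeR adjusted p = 0.0292). In FANCC, a core Fanconi protein, the level was 15.5 and 18.5 CPM at 100 pM, against 8.22 and 8.37 CPM in vehicle (log2 fold change 1.04 ± 0.21, edgeR adjusted p = 0.0168). UNG, the glycosylase that removes uracil, measured 91.7 and 117 CPM at 100 pM, against 48.7 and 62.5 CPM in vehicle (log2 fold change 0.91 ± 0.22, edgeR adjusted p = 0.0315). Rises numbered 9 without 100 pM 1, 1 without 100 pM 3, 1 without vehicle 1 and 1 without vehicle 3. Cohesin and condensin genes had 3 of 13 called up (23.1%) and 0 down, and 11 up and 1 down with the block. ESCO2, which acetylates cohesin during S phase, stood at 19.1 and 34.3 CPM at 100 pM, against 3.10 and 7.18 CPM in vehicle, a log2 fold change of 2.37 ± 0.63 (edgeR adjusted p = 0.0477). SMC3, a core cohesin subunit, rose, with 69.5 and 77.7 CPM at 100 pM, against 55.9 and 56.7 CPM in vehicle (0.39 ± 0.085 on the log2 scale, edgeR adjusted p = 0.0226). In STAG1, a cohesin subunit, the level was 77.8 and 84.2 CPM at 100 pM, against 62.2 and 66.7 CPM in vehicle (log2 fold change 0.33 ± 0.069, edgeR adjusted p = 0.0186). SMC3 and STAG1 rose by smaller steps than ESCO2. Leaving out 1 library ended the calls of EXO1, XRCC3, FANCC, UNG, SMC3 and STAG1 without 100 pM 3, vehicle 1 or vehicle 3, of ESCO2 without any 1 of the 4 libraries (edgeR adjusted p 0.0553 to 0.240).

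Mitosis genes were mostly higher at 100 pM, but few were called without the block. Of 47 tested, 2 rose and 0 fell (4.26%, against 6.57% of all genes), although 46 had a positive fold change and the median was 0.98. With the block 38 were up and 0 down, against 17.0% of all genes in each direction, and DESeq2 called 17 up. The summed level was 2129.8 and 3466 CPM at 100 pM, against 1225 and 1742 CPM in vehicle. Of the 47 genes, 46 were higher in replicate 3 than in replicate 1 at 100 pM (median log2 0.80) and 44 in vehicle (median log2 0.76). PKMYT1, a kinase that holds CDK1 inactive, measured 51.05 and 76.3 CPM at 100 pM, against 11.2 and 16.4 CPM in vehicle (log2 fold change 2.21 ± 0.44, edgeR adjusted p = 0.0166). MKI67, the marker of cycling cells, stood at 120.0 and 209.6 CPM at 100 pM, against 40.1 and 65.04 CPM in vehicle, a log2 fold change of 1.65 ± 0.39 (edgeR adjusted p = 0.0297). Without 100 pM 3, vehicle 1 or vehicle 3, 0 members were called, and without 100 pM 1 the 2 kept their calls. CCNB1, the cyclin of entry into mitosis, measured 28.7 and 45.5 CPM at 100 pM, against 28.5 and 40.1 CPM in vehicle, and was not called (log2 0.11 ± 0.31, edgeR adjusted p = 0.868). PLK1, a mitotic kinase, measured 10.8 and 20.7 CPM at 100 pM, against 9.26 and 16.1 CPM in vehicle, and was not called (log2 0.31 ± 0.50, edgeR adjusted p = 0.753). AURKA, another mitotic kinase, measured 24.95 and 41.2 CPM at 100 pM, against 19.7 and 30.5 CPM in vehicle, and was not called (log2 0.40 ± 0.38, edgeR adjusted p = 0.575). In these 3 genes, chosen after their values were seen, the groups overlapped, and with the block the edgeR adjusted p was 0.694, 0.102 and 0.105 in that order.

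The promoter of MKI67 is shown because mitotic genes are known to carry a cell cycle homology region, TTTGAA, bound by the complex that LIN54 belongs to. That run of letters lay on either strand in 26 of 38 promoters of mitosis genes (68.4%), in 3 of 55 of replication genes (5.45%) and in 9.77% of the 11120 promoters of tested genes. In MKI67 (GRCh38.p14, chr10:128126374-128126673, minus strand) it occurs at 47 and 29 bases before the start, marked in capitals.
MKI67: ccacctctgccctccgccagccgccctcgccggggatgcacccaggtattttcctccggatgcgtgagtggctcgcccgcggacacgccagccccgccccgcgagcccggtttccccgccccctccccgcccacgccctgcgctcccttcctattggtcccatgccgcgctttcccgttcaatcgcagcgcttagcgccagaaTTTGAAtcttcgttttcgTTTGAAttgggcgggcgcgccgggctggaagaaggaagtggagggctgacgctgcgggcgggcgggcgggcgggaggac
The sequence element of the replication genes, searched in the same 38 mitosis promoters, was in 3 (7.89%).

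**Figure D2:**
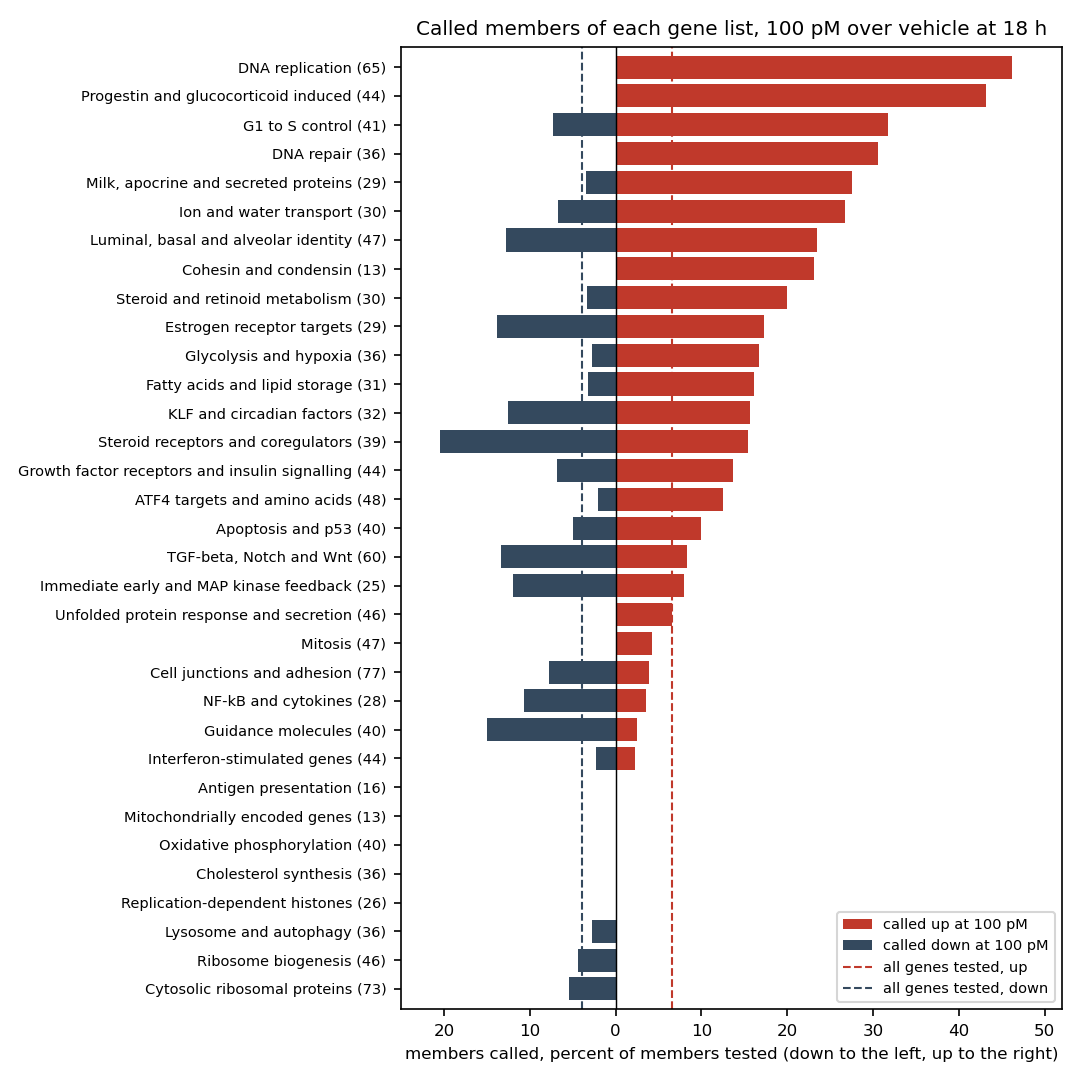
Share of the tested members of each of 33 gene lists that were called up (right) or down (left) at 100 pM over vehicle at 18 h, with the number tested in brackets and dashed lines at the shares of all genes, 6.57% up and 3.89% down. DNA replication had the highest share of rises (46.2%) and steroid receptors and coregulators the highest share of falls (20.5%).

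The progesterone receptor gene fell, as did those of some other receptors. Of 12 nuclear and membrane receptor genes tested, 2 rose, 5 fell and 5 were not called, and of the whole list of 39 receptors, coactivators, corepressors and chaperones, 6 rose, 8 fell and 25 were not called (15.4% and 20.5%). PGR, the progesterone receptor itself, fell, with 627 and 393 CPM at 100 pM, against 1846 and 1379 CPM in vehicle (-1.66 ± 0.29 on the log2 scale, edgeR adjusted p = 0.00943). In ESR1, estrogen receptor alpha, the level was 99.1 and 97.00 CPM at 100 pM, against 165 and 189 CPM in vehicle (log2 fold change -0.85 ± 0.19, edgeR adjusted p = 0.0257). NR3C2, the mineralocorticoid receptor, measured 7.30 and 6.53 CPM at 100 pM, against 10.9 and 11.3 CPM in vehicle (log2 fold change -0.68 ± 0.13, edgeR adjusted p = 0.0133). NR3C1, the glucocorticoid receptor, measured 11.9 and 13.8 CPM at 100 pM, against 17.3 and 20.7 CPM in vehicle, and was not called (log2 -0.56 ± 0.20, edgeR adjusted p = 0.118). With the block NR3C1 was called too, with an edgeR adjusted p of 0.0297. VDR, the vitamin D receptor, stood at 224 and 197 CPM at 100 pM, against 98.1 and 104 CPM in vehicle, a log2 fold change of 1.06 ± 0.094 (edgeR adjusted p = 0.00034). In VDR both 100 pM libraries lay above both vehicle libraries, the opposite order to PGR, ESR1 and NR3C2. Falls in the list numbered 5 without 100 pM 1, 1 without 100 pM 3, 1 without vehicle 1 and 1 without vehicle 3. With 1 library fewer, calls were not kept by PGR without 100 pM 3 or vehicle 1, by ESR1 without any 1 of the 4 libraries, by NR3C2 without 100 pM 3, vehicle 1 or vehicle 3 (edgeR adjusted p 0.0614 to 0.129).

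Genes of proteins that work with these receptors, and of receptor targets, moved in both directions. FKBP5, a co-chaperone that the receptors induce in a feedback loop, rose, with 774 and 855 CPM at 100 pM, against 28.1 and 44.4 CPM in vehicle (4.49 ± 0.42 on the log2 scale, edgeR adjusted p = 0.000434). In PTGES3, the p23 co-chaperone, the level was 505 and 527 CPM at 100 pM, against 390.0 and 385 CPM in vehicle (log2 fold change 0.41 ± 0.076, edgeR adjusted p = 0.0113). GREB1, a hormone-induced cofactor of the estrogen receptor, measured 499 and 432 CPM at 100 pM, against 160.2 and 156 CPM in vehicle (log2 fold change 1.56 ± 0.12, edgeR adjusted p = 0.000176). Of 29 known estrogen receptor targets, 5 rose, 4 fell and 20 were not called (shares of 17.2% up, 13.8% down; in the block fit 7 up and 10 down). CA12, a carbonic anhydrase of the plasma membrane, stood at 187 and 184 CPM at 100 pM, against 77.2 and 89.1 CPM in vehicle, a log2 fold change of 1.16 ± 0.089 (edgeR adjusted p = 0.000171). RET, a receptor tyrosine kinase, rose, with 3.51 and 2.87 CPM at 100 pM, against 0.839 and 0.731 CPM in vehicle (2.02 ± 0.24 on the log2 scale, edgeR adjusted p = 0.00162). In CXCL12, a chemokine, the level was 6.08 and 8.67 CPM at 100 pM, against 26.5 and 21.4 CPM in vehicle (log2 fold change -1.70 ± 0.21, edgeR adjusted p = 0.00189). KCNK5, a potassium channel, measured 3.95 and 2.67 CPM at 100 pM, against 24.2 and 15.8 CPM in vehicle (log2 fold change -2.59 ± 0.31, edgeR adjusted p = 0.00146). BCL2, which blocks apoptosis, stood at 2.62 and 2.90 CPM at 100 pM, against 16.3 and 13.5 CPM in vehicle, a log2 fold change of -2.43 ± 0.35 (edgeR adjusted p = 0.00347). GREB1, CA12 and RET were higher at 100 pM and CXCL12, KCNK5 and BCL2 lower. Calls were lost by PTGES3 without 100 pM 3, vehicle 1 or vehicle 3 (edgeR adjusted p 0.0639 to 0.0799).

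Genes known to be induced by progestins or glucocorticoids rose most often after the replication genes. Of 44 tested, 19 rose, 0 fell and 25 were not called (43.2%), with a median of 0.89, and with the block 34 were up and 1 down. Their summed level was 8079 and 6972 CPM at 100 pM, against 3415 and 3173 CPM in vehicle. The count of rises was 17 without 100 pM 1, 16 without 100 pM 3, 13 without vehicle 1 and 15 without vehicle 3, and 16 in the 18 h libraries alone. PDK4, which inhibits pyruvate dehydrogenase, rose, with 13.9 and 11.9 CPM at 100 pM, against 3.61 and 3.47 CPM in vehicle (1.86 ± 0.13 on the log2 scale, edgeR adjusted p = 0.00011). In KLF15, a Krüppel-like factor, the level was 7.92 and 6.31 CPM at 100 pM, against 0.839 and 0.894 CPM in vehicle (log2 fold change 3.03 ± 0.24, edgeR adjusted p = 0.000176). HSD11B2, which inactivates cortisol, measured 22.7 and 24.8 CPM at 100 pM, against 3.05 and 3.03 CPM in vehicle (log2 fold change 2.96 ± 0.23, edgeR adjusted p = 0.000176). GLUL, glutamine synthetase, stood at 1093 and 853 CPM at 100 pM, against 238 and 188 CPM in vehicle, a log2 fold change of 2.19 ± 0.17 (edgeR adjusted p = 0.00019). STAT5B, which relays prolactin and growth hormone signals, rose, with 133 and 133 CPM at 100 pM, against 82.9 and 82.5 CPM in vehicle (0.69 ± 0.087 on the log2 scale, edgeR adjusted p = 0.00198). In SLC7A8, an amino acid transporter, the level was 188 and 114 CPM at 100 pM, against 38.1 and 33.1 CPM in vehicle (log2 fold change 2.08 ± 0.28, edgeR adjusted p = 0.00258). STAT5A, the close relative of STAT5B, measured 32.95 and 22.4 CPM at 100 pM, against 4.89 and 2.03 CPM in vehicle (log2 fold change 3.0001 ± 0.49, edgeR adjusted p = 0.00661). ZBTB16, a zinc finger repressor, had no count in vehicle and 199 counts at 100 pM, where it measured 1.66 and 3.80 CPM. It was at least 33.1-fold higher at 100 pM, against a floor of 3 counts per vehicle library.

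The 15 largest called rises (average log2 CPM 2 or more over all 12 libraries) included FKBP5, described above, and SGK1, a kinase that stabilises sodium channels. SGK1 measured 34.3 and 49.8 CPM at 100 pM, against 0.308 and 0.352 CPM in vehicle. In APLN and ZBED2, given below, the average over the 4 libraries compared was under that level. TMEM63C, a membrane protein related to osmosensing channels, stood at 93.8 and 90.1 CPM at 100 pM, against 2.91 and 4.44 CPM in vehicle, a log2 fold change of 4.64 ± 0.34 (edgeR adjusted p = 0.000151). APLN, the apelin peptide, a ligand of a G protein-coupled receptor, rose, with 5.58 and 5.01 CPM at 100 pM, against 0.168 and 0.325 CPM in vehicle (4.40 ± 0.30 on the log2 scale, edgeR adjusted p = 0.00011). In ANKRD35, an ankyrin repeat protein, the level was 9.92 and 14.2 CPM at 100 pM, against 0.252 and 0.948 CPM in vehicle (log2 fold change 4.31 ± 0.60, edgeR adjusted p = 0.00317). TRIM22, an antiviral ubiquitin ligase, measured 18.8 and 13.96 CPM at 100 pM, against 1.06 and 0.623 CPM in vehicle (log2 fold change 4.28 ± 0.44, edgeR adjusted p = 0.000766). ZBED2, a zinc finger protein, stood at 4.75 and 6.50 CPM at 100 pM, against 0.112 and 0.514 CPM in vehicle, a log2 fold change of 4.14 ± 0.78 (edgeR adjusted p = 0.0125). Of 44 interferon-stimulated genes TRIM22 rose, TRIM25 (-0.73 ± 0.094), which was chosen after its value was seen, fell and 42 were not called. That is 2.27% in each direction, under the 6.57% up and 3.89% down of all genes. With the block 2 were up and 4 down, against 17.0% of all genes in each direction. SCRG1, a secreted protein, is among the 15 but passed the filter on average level through the 10 nM libraries alone. It had 30 counts at 100 pM and 1 in vehicle, a ratio of 29.5 with an exact 95% counting interval of 4.90 to 1202, which covers counting error only. In S100P, a calcium-binding protein, and SERPINA3, a protease inhibitor, the replicates were far apart. S100P measured 54.9 and 13.9 CPM at 100 pM, against 0.559 and 0.298 CPM in vehicle, and SERPINA3 measured 166 and 46.1 CPM at 100 pM, against 6.40 and 1.27 CPM in vehicle. Leaving out 1 library ended the calls of ZBED2 without 100 pM 3 or vehicle 1, of SERPINA3 without 100 pM 1 or vehicle 3 (edgeR adjusted p 0.0512 to 0.102).

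**Figure D3:**
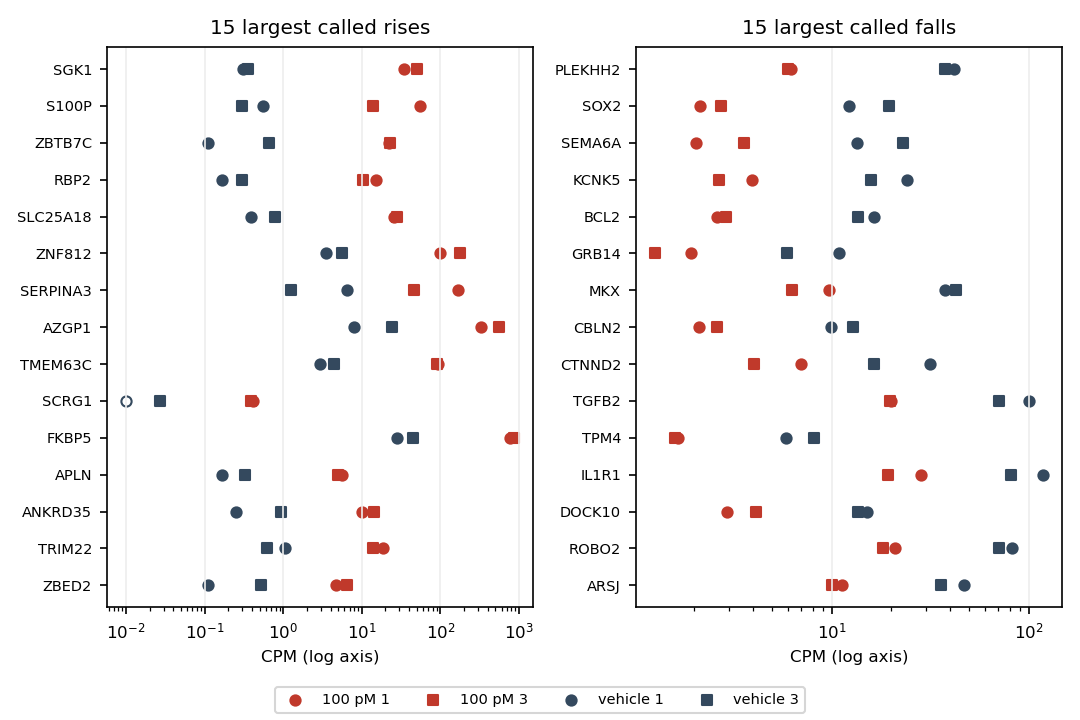
CPM (log axis) in each of the 4 libraries for the 15 largest called rises (left) and falls (right) at 100 pM over vehicle at 18 h, with the open symbol of SCRG1 marking a library with no count, drawn at the edge. In each of the 30 genes the 2 red 100 pM points lie on 1 side of the 2 dark vehicle points.

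The largest falls were smaller than the largest rises and included a growth factor, receptors and cytoskeletal proteins. TGFB2, a transforming growth factor, fell, with 19.99 and 19.7 CPM at 100 pM, against 100.3 and 70.8 CPM in vehicle (-2.11 ± 0.21 on the log2 scale, edgeR adjusted p = 0.00069). In IL1R1, the interleukin 1 receptor, the level was 28.3 and 19.2 CPM at 100 pM, against 118 and 81.4 CPM in vehicle (log2 fold change -2.06 ± 0.45, edgeR adjusted p = 0.0226). ROBO2, a receptor for the guidance protein Slit, measured 20.8 and 18.1 CPM at 100 pM, against 82.6 and 70.4 CPM in vehicle (log2 fold change -1.97 ± 0.17, edgeR adjusted p = 0.000318). DOCK10, a guanine nucleotide exchange factor, stood at 2.93 and 4.11 CPM at 100 pM, against 15.1 and 13.6 CPM in vehicle, a log2 fold change of -2.03 ± 0.18 (edgeR adjusted p = 0.000347). CTNND2, a catenin of neural junctions, fell, with 6.96 and 4.03 CPM at 100 pM, against 31.6 and 16.4 CPM in vehicle (-2.12 ± 0.55 on the log2 scale, edgeR adjusted p = 0.0431). In TPM4, a tropomyosin of the actin cytoskeleton, the level was 1.66 and 1.60 CPM at 100 pM, against 5.87 and 8.12 CPM in vehicle (log2 fold change -2.10 ± 0.33, edgeR adjusted p = 0.00561). ARSJ, a sulfatase, measured 11.3 and 10.05 CPM at 100 pM, against 47.1 and 35.7 CPM in vehicle (log2 fold change -1.96 ± 0.42, edgeR adjusted p = 0.0222). MKX, a homeobox factor, stood at 9.71 and 6.28 CPM at 100 pM, against 37.4 and 42.7 CPM in vehicle, a log2 fold change of -2.32 ± 0.22 (edgeR adjusted p = 0.000453). PLEKHH2, a pleckstrin homology domain protein, fell, with 6.21 and 5.97 CPM at 100 pM, against 41.7 and 37.6 CPM in vehicle (-2.70 ± 0.17 on the log2 scale, edgeR adjusted p = 7.26e-05). In the last of these and in TGFB2 the 2 replicates of 100 pM were almost equal. With 1 library fewer, calls were not kept by IL1R1, CTNND2 and ARSJ without any 1 of the 4 libraries (edgeR adjusted p 0.0503 to 0.222).

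Factors of mammary cell identity moved in both directions. Of 47 tested, 11 rose, 6 fell and 30 were not called (23.4% and 12.8%). In RUNX1, a transcription factor counted here among the alveolar factors, the level was 202 and 175 CPM at 100 pM, against 28.1 and 25.7 CPM in vehicle (log2 fold change 2.81 ± 0.12, edgeR adjusted p = 3.33e-05). ELF5, the ETS factor that drives alveolar fate, measured 590.3 and 575 CPM at 100 pM, against 308 and 344 CPM in vehicle (log2 fold change 0.84 ± 0.15, edgeR adjusted p = 0.00878). CD44, a hyaluronan receptor used as a stem cell marker, stood at 286 and 192 CPM at 100 pM, against 108 and 85.9 CPM in vehicle, a log2 fold change of 1.31 ± 0.23 (edgeR adjusted p = 0.00900). KLF4, a Krüppel-like factor of epithelia, rose, with 137 and 72.1 CPM at 100 pM, against 32.2 and 27.3 CPM in vehicle (1.81 ± 0.38 on the log2 scale, edgeR adjusted p = 0.0188). Of 12 genes listed as alveolar factors, RUNX1 among them, 5 rose and 0 fell, and of 11 listed as luminal factors 1 rose and 3 fell. The listing served for counting only, and a move of the cells towards an alveolar state was not tested. In CITED1, a transcriptional coregulator, the level was 0.831 and 0.816 CPM at 100 pM, against 2.07 and 2.27 CPM in vehicle (log2 fold change -1.40 ± 0.26, edgeR adjusted p = 0.0111). SOX2, a stem cell factor, measured 2.16 and 2.73 CPM at 100 pM, against 12.2 and 19.6 CPM in vehicle (log2 fold change -2.70 ± 0.43, edgeR adjusted p = 0.00602). Rises numbered 7 without 100 pM 1, 8 without 100 pM 3, 5 without vehicle 1 and 6 without vehicle 3, and falls 3 without 100 pM 1, 1 without 100 pM 3, 2 without vehicle 1 and 1 without vehicle 3. Calls were lost by ELF5 without vehicle 1, by CD44 without vehicle 3, by KLF4 without 100 pM 1, vehicle 1 or vehicle 3, by CITED1 without 100 pM 1, 100 pM 3 or vehicle 3 (edgeR adjusted p 0.0592 to 0.116).

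Secretory products rose more often than they fell. Of 50 listed genes 29 could be tested, and 8 rose, 1 fell and 20 were not called (shares of 27.6% up, 3.45% down; in the block fit 12 up and 1 down). Only 3 of 11 milk protein and milk fat genes had enough counts, and 1 rose. PLIN2, the coat protein of lipid droplets, stood at 18.1 and 19.4 CPM at 100 pM, against 10.9 and 12.2 CPM in vehicle, a log2 fold change of 0.70 ± 0.10 (edgeR adjusted p = 0.00296). AZGP1, a zinc-binding glycoprotein of apocrine glands, rose, with 330.4 and 551 CPM at 100 pM, against 7.89 and 24.4 CPM in vehicle (4.77 ± 0.78 on the log2 scale, edgeR adjusted p = 0.00648). In PSCA, a surface glycoprotein, the level was 10.2 and 6.70 CPM at 100 pM, against 1.76 and 1.65 CPM in vehicle (log2 fold change 2.30 ± 0.25, edgeR adjusted p = 0.000854). SLPI, a secreted protease inhibitor, measured 3.45 and 1.77 CPM at 100 pM, against 0.643 and 0.487 CPM in vehicle (log2 fold change 2.21 ± 0.45, edgeR adjusted p = 0.0173). CLU, clusterin, a secreted chaperone, stood at 133 and 160.3 CPM at 100 pM, against 265 and 264 CPM in vehicle, a log2 fold change of -0.85 ± 0.12 (edgeR adjusted p = 0.00309). Rises numbered 4 without 100 pM 1, 6 without 100 pM 3, 5 without vehicle 1 and 4 without vehicle 3. Transport genes of secretory epithelia had 8 of 30 called up and 2 down (shares of 26.7% up, 6.67% down; in the block fit 15 up and 8 down). AQP3, a water and glycerol channel, rose, with 81.1 and 59.6 CPM at 100 pM, against 6.01 and 4.50 CPM in vehicle (3.74 ± 0.20 on the log2 scale, edgeR adjusted p = 5.66e-05). In NEDD4L, the ubiquitin ligase that removes sodium channels, the level was 134 and 127 CPM at 100 pM, against 62.3 and 61.96 CPM in vehicle (log2 fold change 1.07 ± 0.073, edgeR adjusted p = 0.00011). SLC9A3R1, a scaffold of apical transporters, measured 484 and 429 CPM at 100 pM, against 276 and 292 CPM in vehicle (log2 fold change 0.69 ± 0.11, edgeR adjusted p = 0.00471). Rises there numbered 7 without 100 pM 1, 8 without 100 pM 3, 6 without vehicle 1 and 6 without vehicle 3. Leaving out 1 library ended the calls of SLPI without 100 pM 1, vehicle 1 or vehicle 3 (edgeR adjusted p 0.0822 to 0.112).

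Metabolic genes were called in small numbers within each pathway. Of 31 genes of fatty acids and lipid storage, 5 rose, 1 fell and 25 were not called (shares of 16.1% up, 3.23% down; in the block fit 15 up and 4 down), and 4 of the 5 rises and the fall, of MLXIPL, were in synthesis. FASN, fatty acid synthase, stood at 1668 and 1997 CPM at 100 pM, against 487 and 619 CPM in vehicle, a log2 fold change of 1.73 ± 0.37 (edgeR adjusted p = 0.0206). ELOVL5, a fatty acid elongase, rose, with 314 and 351 CPM at 100 pM, against 201 and 209 CPM in vehicle (0.70 ± 0.10 on the log2 scale, edgeR adjusted p = 0.00330). In ELOVL6, another elongase, the level was 16.2 and 17.8 CPM at 100 pM, against 7.998 and 7.74 CPM in vehicle (log2 fold change 1.11 ± 0.16, edgeR adjusted p = 0.00330). MLXIPL, the carbohydrate-response factor of lipid synthesis, measured 25.6 and 25.9 CPM at 100 pM, against 42.1 and 41.8 CPM in vehicle (log2 fold change -0.70 ± 0.10, edgeR adjusted p = 0.00291). Of 36 genes of glycolysis and hypoxia, 6 rose, 1 fell and 29 were not called (shares of 16.7% up, 2.78% down; in the block fit 18 up and 2 down). NDRG1, a hypoxia-induced stress protein, stood at 358 and 391 CPM at 100 pM, against 114 and 136 CPM in vehicle, a log2 fold change of 1.58 ± 0.13 (edgeR adjusted p = 0.000209). PKM, pyruvate kinase, rose, with 1187 and 1225 CPM at 100 pM, against 848 and 909 CPM in vehicle (0.46 ± 0.088 on the log2 scale, edgeR adjusted p = 0.0133). In PFKFB3, a regulator of glycolysis, the level was 177 and 148 CPM at 100 pM, against 80.03 and 64.1 CPM in vehicle (log2 fold change 1.17 ± 0.25, edgeR adjusted p = 0.0218). VEGFA, an angiogenic factor, measured 267 and 213 CPM at 100 pM, against 162 and 134 CPM in vehicle (log2 fold change 0.70 ± 0.14, edgeR adjusted p = 0.0184). SLC1A4, a neutral amino acid transporter, stood at 53.8 and 65.6 CPM at 100 pM, against 24.2 and 26.05 CPM in vehicle, a log2 fold change of 1.25 ± 0.11 (edgeR adjusted p = 0.00026). PHGDH, which opens serine synthesis, rose, with 119 and 152 CPM at 100 pM, against 60.4 and 71.1 CPM in vehicle (1.04 ± 0.19 on the log2 scale, edgeR adjusted p = 0.0116). These last 2 belong to the ATF4 target and amino acid list, of which 6 of 48 rose and 1 fell (shares of 12.5% up, 2.08% down; in the block fit 16 up and 3 down). With 1 library fewer, calls were not kept by FASN and PFKFB3 without any 1 of the 4 libraries, by PKM without 100 pM 3, vehicle 1 or vehicle 3, by VEGFA without 100 pM 1 or vehicle 3, by PHGDH without 100 pM 3 or vehicle 1 (edgeR adjusted p 0.0528 to 0.144).

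In 3 other metabolic lists edgeR called no gene without the block. With the block it called some in each, while it called 17.0% of all genes in each direction. Called genes were 0 of 36 (3 up and 5 down at an unadjusted p under 0.05, 0 up and 0 down by DESeq2, 8 up and 6 down by edgeR with the block) for cholesterol synthesis, 0 of 40 (4 up and 2 down at an unadjusted p under 0.05, 3 up and 1 down by DESeq2, 5 up and 3 down by edgeR with the block) for oxidative phosphorylation and 0 of 13 (0 up and 0 down at an unadjusted p under 0.05, 0 up and 0 down by DESeq2, 0 up and 9 down by edgeR with the block) for the mitochondrially encoded genes. Of the 13 mitochondrial genes, 12 were lower at 100 pM in both numbered pairs, with a median of -0.27, and the 9 called down with the block compare with 17.0% of all genes. Cytosolic ribosomal protein genes were lower together by small steps: all 73 tested had a negative fold change, with a median of -0.27, and 4 fell (5.48%, against 3.89% of all genes). With the block 56 of the 73 were called down, against 17.0% of all genes. Their summed level was 30539 and 25863 CPM at 100 pM, against 34965 and 31460.1 CPM in vehicle. In RPS29, of the small subunit, the level was 133 and 122 CPM at 100 pM, against 201 and 174 CPM in vehicle (log2 fold change -0.55 ± 0.10, edgeR adjusted p = 0.0109). RPL21, of the large subunit, measured 48.7 and 43.1 CPM at 100 pM, against 59.3 and 59.6 CPM in vehicle (log2 fold change -0.37 ± 0.077, edgeR adjusted p = 0.0179). Ribosomal protein genes have many processed copies, and reads shared with them make single values uncertain. Ribosome biogenesis genes had 0 called up and 2 down of 46 (4.35% down, near the 3.89% of all genes). With the block 2 were up and 5 down, against 17.0% of all genes in each direction. Calls were lost by RPS29 without 100 pM 3 or vehicle 1, by RPL21 without 100 pM 3, vehicle 1 or vehicle 3 (edgeR adjusted p 0.0757 to 0.103). Falls in the ribosomal protein list numbered 8 without 100 pM 1, 0 without 100 pM 3, 0 without vehicle 1 and 1 without vehicle 3.

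Signalling pathways changed at ligands, receptors and feedback genes. EGF, the epidermal growth factor, stood at 27.00 and 19.1 CPM at 100 pM, against 1.51 and 1.30 CPM in vehicle, a log2 fold change of 4.03 ± 0.24 (edgeR adjusted p = 6.64e-05). TGFA, another ligand of the same receptor, rose, with 47.3 and 39.1 CPM at 100 pM, against 19.5 and 18.8 CPM in vehicle (1.17 ± 0.11 on the log2 scale, edgeR adjusted p = 0.000433). In ERBB4, a receptor of that family, the level was 14.1 and 17.1 CPM at 100 pM, against 27.8 and 31.2 CPM in vehicle (log2 fold change -0.92 ± 0.18, edgeR adjusted p = 0.0156). Of 44 growth factor receptor and insulin signalling genes, 6 rose, 3 fell and 35 were not called (shares of 13.6% up, 6.82% down; in the block fit 14 up and 11 down). Among feedback genes of MAP kinase signalling, SPRED2 measured 116 and 115 CPM at 100 pM, against 53.6 and 50.2 CPM in vehicle (log2 fold change 1.15 ± 0.091, edgeR adjusted p = 0.000176). SPRY1, a Sprouty inhibitor, stood at 13.4 and 11.4 CPM at 100 pM, against 33.1 and 28.6 CPM in vehicle, a log2 fold change of -1.32 ± 0.26 (edgeR adjusted p = 0.0152). JAG1, a Notch ligand, rose, with 40.9 and 31.8 CPM at 100 pM, against 9.65 and 9.26 CPM in vehicle (1.94 ± 0.19 on the log2 scale, edgeR adjusted p = 0.00054). In NOTCH2, a Notch receptor, the level was 917 and 697 CPM at 100 pM, against 349 and 301 CPM in vehicle (log2 fold change 1.31 ± 0.14, edgeR adjusted p = 0.000953). MAML2, a Notch coactivator, measured 15.3 and 14.3 CPM at 100 pM, against 48.8 and 46.5 CPM in vehicle (log2 fold change -1.68 ± 0.082, edgeR adjusted p = 3.82e-05). SMAD7, an inhibitor of transforming growth factor signals, stood at 9.69 and 9.06 CPM at 100 pM, against 16.4 and 17.7 CPM in vehicle, a log2 fold change of -0.86 ± 0.14 (edgeR adjusted p = 0.00557). In the list of 60 TGF-beta, Notch and Wnt genes, 5 rose, 8 fell and 47 were not called (shares of 8.33% up, 13.3% down; in the block fit 7 up and 19 down), and falls numbered 6 without 100 pM 1, 5 without 100 pM 3, 4 without vehicle 1 and 6 without vehicle 3. Leaving out 1 library ended the calls of ERBB4 without 100 pM 1, vehicle 1 or vehicle 3, of SPRY1 without 100 pM 1, 100 pM 3 or vehicle 1 (edgeR adjusted p 0.0548 to 0.0977).

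Clock output and adhesion genes gave smaller groups. Among 32 KLF and circadian genes, 5 rose, 4 fell and 23 were not called (shares of 15.6% up, 12.5% down; in the block fit 10 up and 7 down). BHLHE40, a clock repressor, rose, with 234 and 205 CPM at 100 pM, against 107 and 106 CPM in vehicle (1.04 ± 0.11 on the log2 scale, edgeR adjusted p = 0.000713). In PER1, a period protein that glucocorticoids induce, the level was 40.2 and 37.2 CPM at 100 pM, against 15.4 and 20.7 CPM in vehicle (log2 fold change 1.10 ± 0.22, edgeR adjusted p = 0.0151). TEF, a clock output factor, measured 8.78 and 8.36 CPM at 100 pM, against 15.97 and 17.6 CPM in vehicle (log2 fold change -0.97 ± 0.10, edgeR adjusted p = 0.000766). DBP, its relative, stood at 4.02 and 3.35 CPM at 100 pM, against 8.86 and 7.72 CPM in vehicle, a log2 fold change of -1.17 ± 0.19 (edgeR adjusted p = 0.00561). NR1D2, a clock repressor of the REV-ERB type, fell, with 41.8 and 36.96 CPM at 100 pM, against 78.05 and 76.6 CPM in vehicle (-0.97 ± 0.18 on the log2 scale, edgeR adjusted p = 0.0124). Of 77 genes of junctions and adhesion, 3 rose, 6 fell and 68 were not called (shares of 3.9% up, 7.79% down; in the block fit 7 up and 24 down). In LAMA3, a laminin chain of basement membrane, the level was 107 and 107 CPM at 100 pM, against 14.5 and 17.3 CPM in vehicle (log2 fold change 2.75 ± 0.14, edgeR adjusted p = 5.19e-05). THBS1, thrombospondin, measured 423 and 489 CPM at 100 pM, against 142 and 153 CPM in vehicle (log2 fold change 1.63 ± 0.16, edgeR adjusted p = 0.0005). LAMB1, another laminin chain, stood at 67.5 and 67.6 CPM at 100 pM, against 118 and 108 CPM in vehicle, a log2 fold change of -0.74 ± 0.11 (edgeR adjusted p = 0.00358). CGN, cingulin, of tight junctions, fell, with 169 and 166 CPM at 100 pM, against 255 and 276 CPM in vehicle (-0.66 ± 0.10 on the log2 scale, edgeR adjusted p = 0.00529). Of 40 guidance genes, 1 rose, 6 fell and 33 were not called (shares of 2.5% up, 15% down; in the block fit 9 up and 11 down), with ROBO1 (-1.13 ± 0.10) next to ROBO2. Falls numbered 5 without 100 pM 1, 5 without 100 pM 3, 4 without vehicle 1 and 6 without vehicle 3 for adhesion and 4 without 100 pM 1, 2 without 100 pM 3, 3 without vehicle 1 and 4 without vehicle 3 for guidance. With 1 library fewer, calls were not kept by PER1 without 100 pM 1, 100 pM 3 or vehicle 1, by NR1D2 without 100 pM 3, vehicle 1 or vehicle 3 (edgeR adjusted p 0.0527 to 0.113).

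The 6 h libraries ask how much of the response was already there. At 6 h 483 genes were called at 100 pM over vehicle, and 388 of them moved the same way at 18 h, which is 80.3% of the 6 h calls and 26.8% of the 1450 calls at 18 h. In 0 genes were the calls opposite. In the direct test of the difference between the response at 18 h and the response at 6 h, edgeR called 2 genes (0.0144%), with 988 at an unadjusted p under 0.05, and 108 by DESeq2. With the block, 435 genes were called as higher at 18 h (3.14%) and 342 as lower (2.47%). The DNA replication list held 47 of these 435 and 0 of the 342 among its 65 tested genes, mitosis 14 and 0 of 47, and the progestin-induced list 3 and 0 of 44. MCM6 had a log2 fold change over vehicle of 1.81 ± 0.32 at 18 h and 0.70 ± 0.31 at 6 h, and TK1 had a log2 fold change over vehicle of 2.42 ± 0.49 at 18 h and 0.40 ± 0.47 at 6 h. POLA1 had a log2 fold change over vehicle of 0.997 ± 0.20 at 18 h and -0.034 ± 0.20 at 6 h. Earlier responses are given for comparison. FKBP5 had a log2 fold change over vehicle of 4.49 ± 0.42 at 18 h and 4.07 ± 0.41 at 6 h, PDK4 had a log2 fold change over vehicle of 1.86 ± 0.13 at 18 h and 1.99 ± 0.13 at 6 h, and RUNX1 had a log2 fold change over vehicle of 2.81 ± 0.12 at 18 h and 3.003 ± 0.13 at 6 h. The difference between the times was 1.11 ± 0.44 for MCM6, 2.02 ± 0.67 for TK1, 1.03 ± 0.29 for POLA1, 0.42 ± 0.51 for FKBP5, -0.13 ± 0.18 for PDK4 and -0.20 ± 0.17 for RUNX1, and without the block none of the 6 was called. With the block those of MCM6, TK1 and POLA1 were called (edgeR adjusted p = 0.00822, 0.00507 and 0.00284 in that order) and those of FKBP5, PDK4 and RUNX1 were not (0.284, 0.755 and 0.521). The 6 genes were chosen after their values were seen. The median over the replication list was 1.33 at 18 h and 0.26 at 6 h, and over the progestin-induced list 0.89 at 18 h and 0.90 at 6 h.

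Both genes called without the block fell more at 18 h. MAML2 measured 15.3 and 14.3 CPM at 100 pM, against 48.8 and 46.5 CPM in vehicle at 18 h, and 36.5 and 34.6 CPM at 100 pM, against 50.98 and 46.7 CPM in vehicle at 6 h. The fold change at 18 h minus that at 6 h was -1.22 ± 0.11 on the log2 scale (edgeR adjusted p = 0.0333). NPNT, nephronectin, an integrin ligand of the matrix, measured 27.8 and 29.3 CPM at 100 pM, against 70.4 and 66.8 CPM in vehicle at 18 h, and 56.1 and 56.9 CPM at 100 pM, against 65.1 and 70.1 CPM in vehicle at 6 h. Its difference was -1.01 ± 0.10 (edgeR adjusted p = 0.0416). Without any 1 of the 8 libraries the count of called differences was 0.

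**Figure D4:**
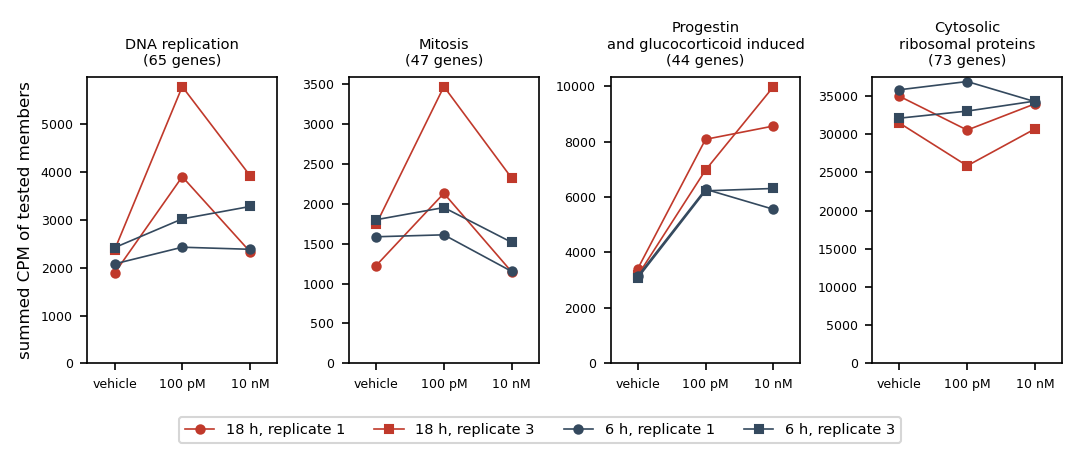
Summed CPM of the tested members of 4 gene lists by dose (vehicle, 100 pM, 10 nM), at 18 h (red) and 6 h (dark), with a line for each replicate number. DNA replication and mitosis genes peak at 100 pM at 18 h in both replicates, replicate 3 lies above replicate 1 in both lists, and ribosomal protein genes are lowest at 100 pM at 18 h within each replicate.

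Set directly against 100 pM, 10 nM at 18 h gave 2051 genes higher (14.8%) and 1584 lower (11.4%), and this comparison shares its 100 pM libraries with the one above. Replication genes were mostly lower at the higher dose, though few were called: 1 of 65 was higher and 6 lower, with a median of -0.73, and with the block 2 were higher and 55 lower. The unblocked share, 6 of 65 lower, is under the 11.4% of all genes, and with the block 25.4% of all genes were higher and 24.7% lower. Their summed level was 1884 and 2368 CPM in vehicle, 3899.8 and 5781 CPM at 100 pM and 2335 and 3923 CPM at 10 nM. MCM5 measured 17.98 and 21.3 CPM in vehicle, 71.3 and 92.9 CPM at 100 pM and 25.7 and 50.2 CPM at 10 nM (10 nM over 100 pM log2 -1.11 ± 0.35, edgeR adjusted p = 0.0483). POLD1 measured 22.3 and 22.99 CPM in vehicle, 38.2 and 46.4 CPM at 100 pM and 21.1 and 29.7 CPM at 10 nM (10 nM over 100 pM log2 -0.73 ± 0.16, edgeR adjusted p = 0.0109). CDK2 measured 51.6 and 54.2 CPM in vehicle, 104 and 143 CPM at 100 pM and 52.5 and 82.8 CPM at 10 nM (10 nM over 100 pM log2 -0.87 ± 0.23, edgeR adjusted p = 0.0217). For CCND1 and the progesterone receptor gene the difference between the doses was not called. CCND1 measured 103 and 92.96 CPM in vehicle, 369 and 261 CPM at 100 pM and 242 and 257 CPM at 10 nM (10 nM over 100 pM log2 -0.34 ± 0.16, edgeR adjusted p = 0.173). PGR measured 1846 and 1379 CPM in vehicle, 627 and 393 CPM at 100 pM and 523 and 328 CPM at 10 nM (10 nM over 100 pM log2 -0.26 ± 0.29, edgeR adjusted p = 0.553). With the block the edgeR adjusted p of the difference between doses was 0.0397 for CCND1 and 0.0625 for PGR. Calls between the doses were lost by MCM5 without 100 pM 1, 100 pM 3 or 10 nM 1, by POLD1 and CDK2 without 100 pM 3 or 10 nM 1 (edgeR adjusted p 0.0570 to 0.230).

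Several genes had their highest or lowest level at 100 pM. AQP3 measured 6.01 and 4.50 CPM in vehicle, 81.1 and 59.6 CPM at 100 pM and 7.09 and 8.60 CPM at 10 nM (10 nM over 100 pM log2 -3.16 ± 0.19, edgeR adjusted p = 2.29e-05). CYP4Z1, a fatty acid hydroxylase of the breast, measured 2.57 and 3.22 CPM in vehicle, 31.6 and 44.2 CPM at 100 pM and 2.55 and 4.63 CPM at 10 nM (10 nM over 100 pM log2 -3.40 ± 0.49, edgeR adjusted p = 0.00123). RUNX1 measured 28.1 and 25.7 CPM in vehicle, 202 and 175 CPM at 100 pM and 62.6 and 62.1 CPM at 10 nM (10 nM over 100 pM log2 -1.60 ± 0.12, edgeR adjusted p = 4.16e-05). In these genes the 10 nM libraries lay close to vehicle or between vehicle and 100 pM. EHF measured 267 and 336 CPM in vehicle, 643 and 675 CPM at 100 pM and 167 and 218 CPM at 10 nM (10 nM over 100 pM log2 -1.78 ± 0.22, edgeR adjusted p = 0.000651). ELF5 measured 308 and 344 CPM in vehicle, 590.3 and 575 CPM at 100 pM and 155 and 207 CPM at 10 nM (10 nM over 100 pM log2 -1.69 ± 0.15, edgeR adjusted p = 0.000105). XBP1, a factor of the secretory pathway, measured 499 and 669 CPM in vehicle, 1400.5 and 1479 CPM at 100 pM and 503 and 652 CPM at 10 nM (10 nM over 100 pM log2 -1.32 ± 0.25, edgeR adjusted p = 0.00543). SPRED2 measured 53.6 and 50.2 CPM in vehicle, 116 and 115 CPM at 100 pM and 49.6 and 50.9 CPM at 10 nM (10 nM over 100 pM log2 -1.20 ± 0.091, edgeR adjusted p = 4.69e-05). In EHF and ELF5 both 10 nM libraries lay below both vehicle libraries, and in XBP1 and SPRED2 they lay close to them. Of 47 luminal, basal and alveolar genes 7 were higher and 21 lower at 10 nM, against 14.8% and 11.4% of all genes. Other genes were lowest at 100 pM. CXCL12 measured 26.5 and 21.4 CPM in vehicle, 6.08 and 8.67 CPM at 100 pM and 57.6 and 73.3 CPM at 10 nM (10 nM over 100 pM log2 3.15 ± 0.22, edgeR adjusted p = 3.51e-05). SCIN, an actin-severing protein, measured 5.98 and 6.07 CPM in vehicle, 2.36 and 2.73 CPM at 100 pM and 26.5 and 23.1 CPM at 10 nM (10 nM over 100 pM log2 3.28 ± 0.20, edgeR adjusted p = 2.20e-05). MAML2 measured 48.8 and 46.5 CPM in vehicle, 15.3 and 14.3 CPM at 100 pM and 34.03 and 33.5 CPM at 10 nM (10 nM over 100 pM log2 1.19 ± 0.082, edgeR adjusted p = 3.24e-05). SOX9 measured 106 and 93.8 CPM in vehicle, 69.9 and 49.5 CPM at 100 pM and 172 and 155 CPM at 10 nM (10 nM over 100 pM log2 1.45 ± 0.16, edgeR adjusted p = 0.000276). EHF, XBP1 and SOX9 were chosen after their values were seen. Over vehicle, the rises of EHF and XBP1 at 100 pM were not called without 100 pM 3 or vehicle 1. The fall of SOX9 over vehicle was not called without 100 pM 3, vehicle 1 or vehicle 3.

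Other genes went on in the direction begun at 100 pM. GREB1 measured 160.2 and 156 CPM in vehicle, 499 and 432 CPM at 100 pM and 1106 and 983 CPM at 10 nM (10 nM over 100 pM log2 1.16 ± 0.12, edgeR adjusted p = 0.000224). PDK4 measured 3.61 and 3.47 CPM in vehicle, 13.9 and 11.9 CPM at 100 pM and 51.9 and 55.2 CPM at 10 nM (10 nM over 100 pM log2 2.05 ± 0.12, edgeR adjusted p = 2.20e-05). CD44 measured 108 and 85.9 CPM in vehicle, 286 and 192 CPM at 100 pM and 678 and 463 CPM at 10 nM (10 nM over 100 pM log2 1.25 ± 0.23, edgeR adjusted p = 0.00424). SLPI measured 0.643 and 0.487 CPM in vehicle, 3.45 and 1.77 CPM at 100 pM and 38.9 and 38.01 CPM at 10 nM (10 nM over 100 pM log2 3.87 ± 0.40, edgeR adjusted p = 0.000245). In these 4 genes the 10 nM libraries stood above the 100 pM libraries, which stood above vehicle. Falls also deepened with dose. TGFB2 measured 100.3 and 70.8 CPM in vehicle, 19.99 and 19.7 CPM at 100 pM and 4.30 and 3.90 CPM at 10 nM (10 nM over 100 pM log2 -2.27 ± 0.23, edgeR adjusted p = 0.000208). ROBO2 measured 82.6 and 70.4 CPM in vehicle, 20.8 and 18.1 CPM at 100 pM and 3.21 and 4.44 CPM at 10 nM (10 nM over 100 pM log2 -2.35 ± 0.19, edgeR adjusted p = 6.25e-05). In both genes the 10 nM libraries lay below the 100 pM libraries. BCAS1, a protein amplified in some breast tumours, measured 216 and 209 CPM in vehicle, 107 and 99.5 CPM at 100 pM and 10.2 and 13.8 CPM at 10 nM (10 nM over 100 pM log2 -3.10 ± 0.14, edgeR adjusted p = 1.26e-05). ENTPD3, an ectonucleotidase, measured 12.8 and 9.78 CPM in vehicle, 3.999 and 4.50 CPM at 100 pM and 0.517 and 0.506 CPM at 10 nM (10 nM over 100 pM log2 -3.05 ± 0.35, edgeR adjusted p = 0.000372). CBLN2, a synapse organiser, measured 9.90 and 12.8 CPM in vehicle, 2.13 and 2.62 CPM at 100 pM and 0.201 and 0.393 CPM at 10 nM (10 nM over 100 pM log2 -2.98 ± 0.32, edgeR adjusted p = 0.00029). The largest differences that the naming rule picked also held ACOT6 (3.38 ± 0.63), an acyl-CoA thioesterase, and C1orf168 (3.32 ± 0.54), both higher at 10 nM. SCRG1, near the floor at 100 pM, measured 24.8 and 27.3 CPM at 10 nM, against 0.415 and 0.394 CPM at 100 pM.

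**Figure D5:**
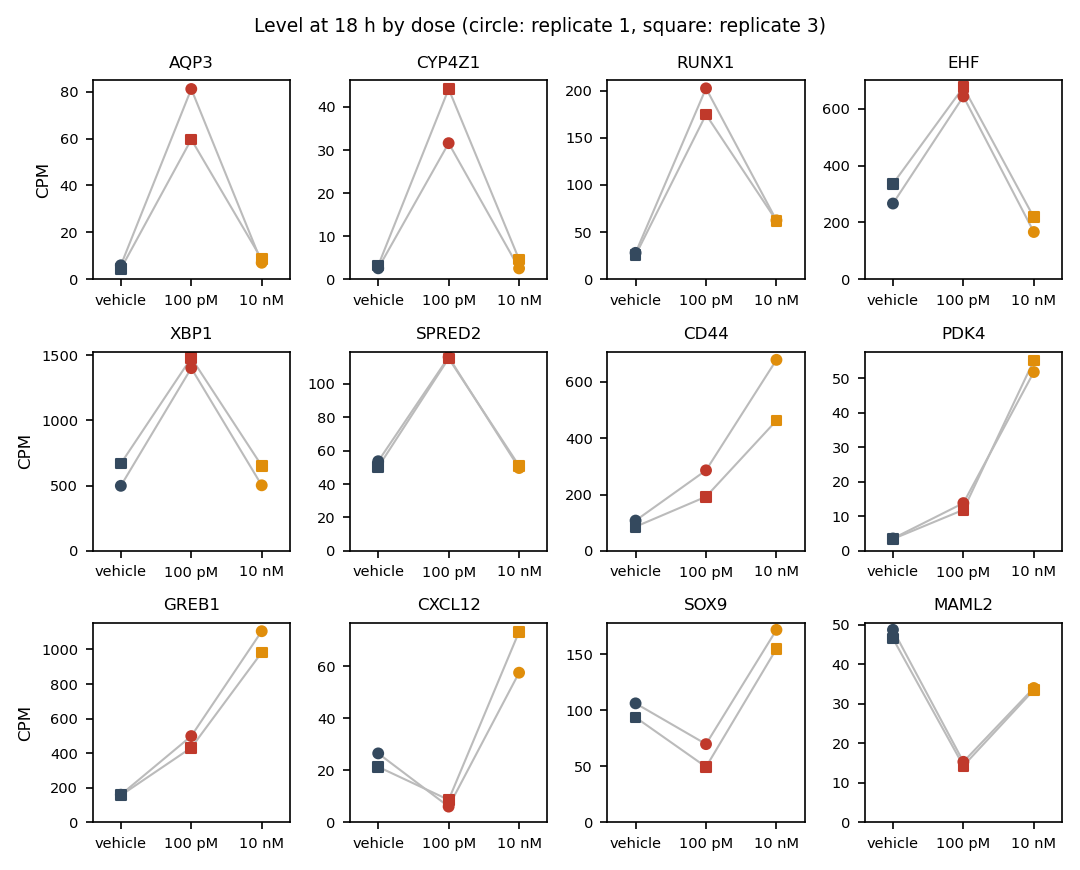
CPM at 18 h by dose (vehicle, 100 pM, 10 nM) for 12 genes, chosen after their values were seen to show the shapes of the dose response, with a line for each replicate number. AQP3, CYP4Z1, RUNX1, EHF, XBP1 and SPRED2 are highest at 100 pM, CD44, PDK4 and GREB1 rise with dose, and CXCL12, SOX9 and MAML2 are lowest at 100 pM.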

How the data were processed

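The deposited table holds raw read counts per gene symbol for 20114 genes in 12 libraries of total RNA, prepared with Nextera, per the labels. STAR, DESeq2 and the hg19 build are named, with no role, in the submitters' processing notes. For versions, the read counter, the annotation and strand, the entry is: not given in the sources used here. Total counts were 34204970 to 41373890 per library.

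Counts were tested with edgeR 4.0.16 in R 4.3.3 (quasi-likelihood, robust, TMM factors, filterByExpr over 6 groups, 13872 genes kept, 6 residual degrees of freedom). P-values were Benjamini-Hochberg adjusted over all genes tested, with calls under 0.05, and SE is the size of the log2 fold change over the square root of F. The scripts were tested on simulated data. Pair ratios in the plot of replication genes used 0.1 CPM as a pseudocount. A vehicle level of 0 counts was set at a floor of 3 counts per library, and floors and exact 95% intervals cover counting error only. Promoters are RefSeq windows of GRCh38.p14, whose coordinates were not mixed with the files' build.

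The replicate numbers 1 and 3 are in the labels, which do not say what they share. Deviations of same-numbered libraries from group means correlated in all 15 pairs of groups (r 0.464 to 0.677). The numbers paired the samples in the pair ratios and in the block fit. The main fit had no block, so variation shared by a replicate number stayed in its spread. Alternatives were RLE and upper-quartile factors, DESeq2 1.42.0, filters, fits to fewer libraries, the replicate block, and each library left out. Within groups, libraries differed by more than sampling noise (chi-square per degree of freedom 60.9 and 56.1).

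Genes named were called genes with the 15 largest rises or falls (average log2 CPM 2 or more), up to 8 called members per list by adjusted p, the 5 largest called differences in each direction between times and between doses, and PGR, ESR1, NR3C1, CCND1, MKI67, GREB1, FKBP5 and STAT5A. Some genes the rule picked are not reported here. Others are said to be chosen after their values were seen. The comparison, gene lists and rules were chosen with earlier results of these data known.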

Additional observations from a re-analysis of the deposited data

Results flagged for a closer look

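In 2 genes the response to 100 pM differed between 18 h and 6 h in the direct test. The response of MAML2 was -1.68 ± 0.082 at 18 h and -0.46 ± 0.080 at 6 h on the log2 scale, a difference of -1.22 (edgeR adjusted p = 0.0333), and MAML2 was lower than vehicle in both numbered pairs at both times. The response of NPNT was -1.26 ± 0.075 at 18 h and -0.26 ± 0.073 at 6 h, a difference of -1.01 (edgeR adjusted p = 0.0416), and NPNT was lower than vehicle in both numbered pairs at both times. Neither difference was called when any 1 of the 8 libraries was left out.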

How the results depend on the processing

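At 100 pM against vehicle at 18 h, the 1450 calls became 2231 with DESeq2, 4728 with the replicate block, 655 in the 18 h libraries alone and 438 in the 4 libraries alone, and 512 to 845 with 1 library left out. With RLE factors 1380 of the 1450 calls remained, with upper-quartile factors 1328 and with the block all 1450, and no gene was called in the opposite direction under any of these settings. For the response at 18 h minus that at 6 h, the 2 calls became 1 with RLE factors, 5 with upper-quartile factors, 108 with DESeq2, 5 with no filter, 6 with a stricter filter, 777 with the replicate block and 0 with any 1 library left out. For 10 nM against 100 pM, the 3635 calls became 6958 with the block and 2286 to 2900 with 1 library left out. The causes of these changes were not tested. Fits to fewer libraries differ from the main fit both in the number of samples and in which samples they hold. Losses printed for single genes above are those with 1 library left out. Of the genes followed by name, 91 lost their calls in the 4 libraries alone and 79 in the 18 h libraries alone. PLIN2, CLU, ELOVL5, SLC9A3R1, CGN, SMAD7 and DBP lost theirs in the 4 libraries alone, though no left-out library ended them.

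Differences that were not called could change sign with 1 library left out: CCNB1 ran from -0.26 to 0.41, with the sign turned without 100 pM 3 (-0.26) and without vehicle 1 (-0.11), PLK1 ran from -0.22 to 0.77, with the sign turned without 100 pM 3 (-0.22) and without vehicle 1 (-0.029), AURKA ran from -0.0074 to 0.75, with the sign turned without 100 pM 3 (-0.0074), PGR between 10 nM and 100 pM ran from -0.64 to 0.12, with the sign turned without 10 nM 3 (0.016) and without 100 pM 1 (0.12). With 2 libraries in each group, the 30 rises among DNA replication genes numbered 1 without 100 pM 3, 1 without vehicle 1 and 4 without vehicle 3.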

Other observations

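Shares are read against 6.57% up and 3.89% down over all genes. Among lists not described above, of the steroid and retinoid metabolism genes 6 rose and 1 fell of 30 (20% and 3.33%) at 100 pM against vehicle at 18 h, of the apoptosis and p53 genes 4 rose and 2 fell of 40 (10% and 5%), and of the unfolded protein response and secretion genes 3 rose and 0 fell of 46 (6.52% and 0%). Of the NF-kB and cytokine genes 1 rose and 3 fell of 28 (3.57% and 10.7%), of the immediate early and MAP kinase feedback genes 2 rose and 3 fell of 25 (8% and 12%), and of the lysosome and autophagy genes 0 rose and 1 fell of 36 (0% and 2.78%). The share of unfolded protein response genes that rose was near that of all genes. Of 16 antigen presentation genes edgeR called 0 without the replicate block and 4 down with it (against 17.0% of all genes), with 0 up and 2 down at an unadjusted p under 0.05 without the block, and DESeq2 called 0 up and 2 down. HSD17B2, which oxidises estradiol, had 47 counts at 100 pM and 3 in vehicle, a ratio of 15.4. The exact 95% counting interval was 4.95 to 77.3, which covers counting error only and not the spread between replicates. The call of HSD17B2 was lost without 100 pM 3, vehicle 1 or vehicle 3 (log2 3.32, 3.48 and 4.36 in that order).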
